A study of Mus musculus with 6 samples.

Results

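Adult neurogenesis in the wall of the lateral ventricle was followed here through 9 marker genes in RNA sequencing of the mouse striatum, the tissue that borders this wall. The genes were Mki67, Top2a, Dlx1, Dlx2, Sox4, Sox11, Dcx, Cd24a and Igfbpl1, taken by Ensembl identifier (named through the GENCODE M21 annotation of GRCm38) from the 46078 genes in the deposited table. The rule that lists them names their known role and uses no measured value, although it was written with earlier results of these data known, and 9 of 9 passed the filter on low values, a mean of 10 or more normalized reads across the 6 libraries, which 17605 genes met. A normalized read count is the number of reads counted on a gene divided by the size factor of its library. The study compared 3 wild-type (WT) mice with 3 mice that overexpress Shank3, a scaffold protein of the excitatory postsynapse, from an EGFP-Shank3 transgene (Shank3 TG mice). All 6 were males of the C57BL/6J strain aged 12 weeks, with 1 striatal library per mouse. The promoter that drives the transgene is not given in the sources used here, and the dissection took the striatum with a brain matrix, not the subventricular zone.

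In the subventricular zone, slowly dividing stem cells with astroglial features give rise to transit-amplifying progenitors, and these to neuroblasts that migrate to the olfactory bulb and become interneurons. Mki67 and Top2a are made in dividing cells, the Dlx and SoxC transcription factors in progenitors and young neurons, and Dcx, Cd24a and Igfbpl1 in migrating neuroblasts. None of these genes belongs to one cell type alone. Oligodendrocyte precursors also divide, mature interneurons keep some Dlx expression, and ependymal cells, the ciliated cells that line the ventricle, also carry Cd24a. In bulk tissue, fewer cells of a type and less RNA per cell cannot be told apart.

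The libraries held between 27689589 and 36647626 reads on genes, and Shank3 separated the genotypes, with 26044 to 29891 normalized read counts in Shank3 TG mice and 12918 to 13865 in WT mice. Medium spiny neuron markers summed to between 136509 and 189324 normalized read counts, and so marked each library as striatal. Cortical excitatory neuron markers were also present, with a sum between 26085 and 37369. A pair of libraries stood apart in tissue that adjoins the ventricle. In TG replicate 1 the 11 choroid plexus markers tested lay at a median log2 ratio of 2.41 relative to the mean of the 6 libraries, while in the other libraries this median lay between -0.71 and 0.45. In WT replicate 2 the 10 ependymal markers tested lay at 0.62 on the same measure, against -0.27 to 0.17 in the other libraries. The markers and the gene lists are therefore also given without WT replicate 2 or TG replicate 1 where their direction turned or their value moved by much.

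The marker genes did not separate the genotypes. Shank3 was the 1 gene of 17605 (0.00568%) that limma called with an adjusted P below 0.05, and 0 of the 9 markers were called. DESeq2, run on recovered read counts, called 0.0398% of the genes and again 0 of the 9, and edgeR 0.00568% and 0 of the 9. By limma 0 of the 9 had an unadjusted P below 0.05, against 4.31% of all genes tested and 2.33% with a lower TG mean, and 0 of the 9 did so by edgeR or DESeq2. The TG mean was below the WT mean in 9 of 9 genes, against 50.8% of all genes tested, with a median log2 fold change of -0.15 (-0.0018 over all genes tested). The values of the genotypes overlapped in 9 of 9 genes, whereas they did not overlap in 10.1% of all genes tested. The common direction depended on which libraries were used. Without WT replicate 2, the log2 fold change was above 0 in 5 of the 9 genes and below 0 in 4 (50.9% of all genes were below 0), with a median of 0.07. Without TG replicate 2, Dlx1 and Igfbpl1 were above 0, and without TG replicate 3 Dlx1 was. The median moved the other way, to -0.26 without TG replicate 1 and to -0.32 without WT replicate 3. The 9 genes share their libraries, so a common sign does not count as 9 separate observations.

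**Figure D1:**
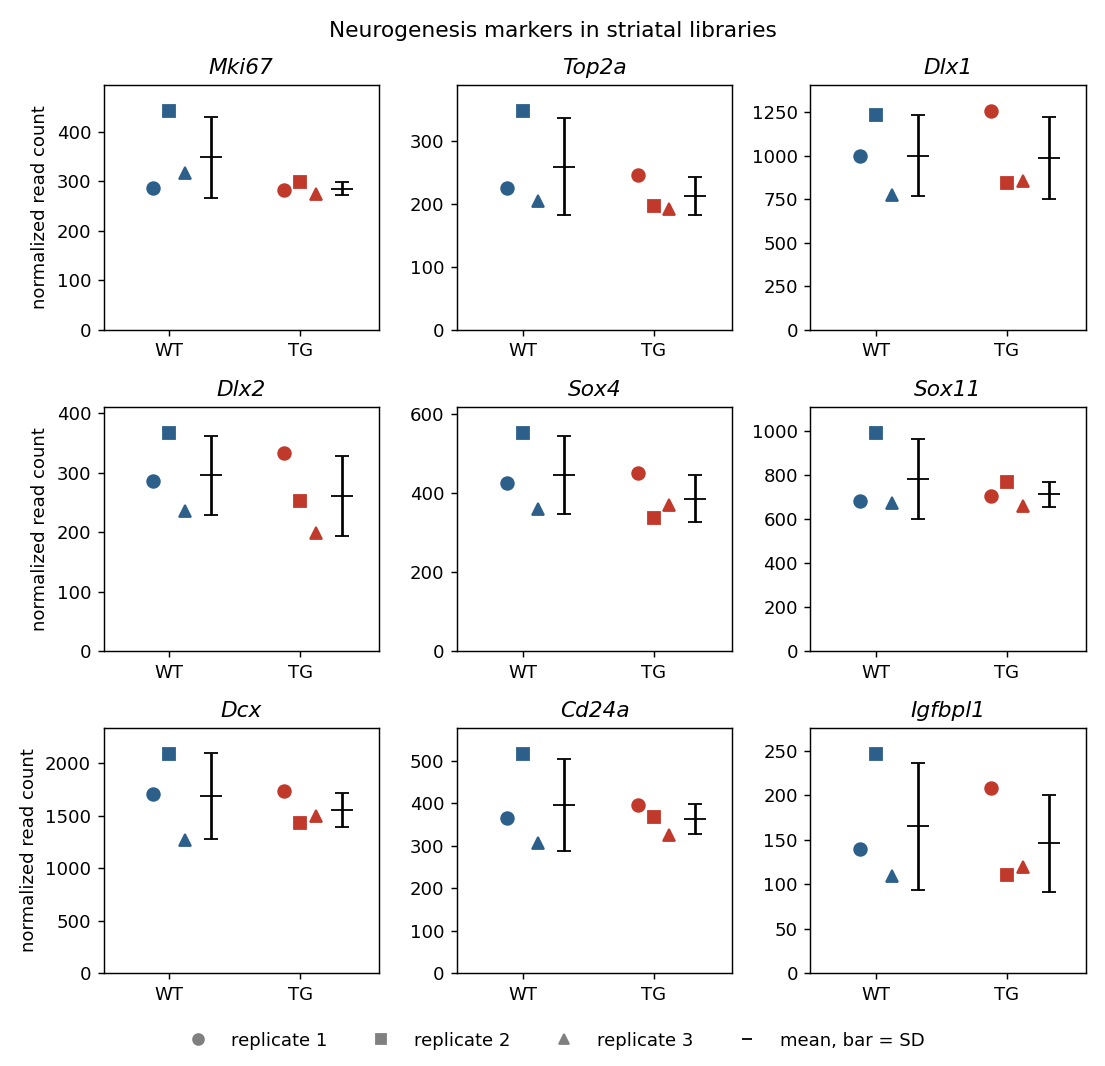
Normalized read counts of the 9 neurogenesis markers (vertical axes, from 0) in the 3 WT (blue) and 3 Shank3 TG (red) libraries, with the symbol shape giving the replicate and the mean ± SD beside each group. WT replicate 2 is the highest of the 6 libraries in 8 of the 9 genes, and the genotypes overlap in each gene.

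Mki67 and Top2a mark dividing cells. Mki67 encodes the proliferation antigen Ki-67, a chromosome surface protein, and Top2a encodes DNA topoisomerase II alpha, which untangles chromosomes at mitosis. Mki67 (ENSMUSG00000031004; chromosome 7, 135689784 to 135716361, minus strand) had 286, 441 and 317 normalized read counts in WT replicates 1, 2 and 3 and 283, 299 and 274 in TG replicates 1, 2 and 3. WT replicate 2 was far above the other 5 libraries, WT replicate 3 somewhat above the TG values, and WT replicate 1 among them. The means were 348 ± 82.2 (SD, n = 3) in WT mice and 285 ± 12.8 (SD, n = 3) in TG mice, a log2 fold change of TG against WT of -0.26 (standard error, SE, 0.14, 95% interval -0.57 to 0.05, adjusted P = 0.971 by limma). This was the smallest unadjusted P value among the 9 genes (0.0897 by limma, 0.0653 by edgeR and 0.0527 by DESeq2), and without WT replicate 2 the log2 fold change was -0.08. Top2a (ENSMUSG00000020914; chromosome 11, 98992943 to 99024189, minus strand) had 225, 347 and 204 in WT mice and 246, 197 and 192 in TG mice. Here TG replicate 1 lay above WT replicates 1 and 3. The log2 fold change was -0.26 (SE 0.18, 95% interval -0.66 to 0.14), and -0.03 without WT replicate 2.

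The promoters of these genes are shown because both are textbook cell cycle genes. Their highest library, WT replicate 2, was also that of Dcx, shown beside them, and was the highest in 8 of the 9 genes. Each window runs from 250 bases before to 50 bases after the RefSeq start site, and 7 of the 9 members had at least 1 window, those of Cd24a and Igfbpl1 not being among them. Capitals mark CCAAT, the NF-Y box, and TTTGAA, a form of the cell cycle genes homology region, on either strand (also read as ATTGG and TTCAAA). These motifs do not overlap each other in the windows printed. The windows lie on GRCm38.p6 at chr7:135716330-135716629 (Mki67), chr11:99024140-99024439 (Top2a) and chrX:143933170-143933469 (Dcx, the first of 2 windows), each on the minus strand and printed 5′ to 3′ along the gene.
Mki67: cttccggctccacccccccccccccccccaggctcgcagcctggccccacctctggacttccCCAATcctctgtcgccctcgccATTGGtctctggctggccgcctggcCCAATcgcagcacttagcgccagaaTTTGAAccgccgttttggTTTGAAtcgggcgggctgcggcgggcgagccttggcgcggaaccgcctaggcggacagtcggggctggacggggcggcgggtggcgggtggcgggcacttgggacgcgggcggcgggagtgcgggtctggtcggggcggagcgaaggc
Top2a: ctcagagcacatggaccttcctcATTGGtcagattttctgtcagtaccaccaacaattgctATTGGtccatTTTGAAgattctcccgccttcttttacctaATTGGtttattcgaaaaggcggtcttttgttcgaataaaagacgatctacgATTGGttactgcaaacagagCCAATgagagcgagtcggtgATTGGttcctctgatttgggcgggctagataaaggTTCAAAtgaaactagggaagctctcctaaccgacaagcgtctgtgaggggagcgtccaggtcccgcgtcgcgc
Dcx: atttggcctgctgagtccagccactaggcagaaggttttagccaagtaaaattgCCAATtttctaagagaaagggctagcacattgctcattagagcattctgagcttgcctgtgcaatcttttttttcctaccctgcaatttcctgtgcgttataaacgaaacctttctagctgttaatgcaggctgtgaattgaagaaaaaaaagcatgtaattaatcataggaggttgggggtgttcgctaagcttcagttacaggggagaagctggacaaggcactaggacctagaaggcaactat
The Mki67 window held 3 CCAAT and 2 TTTGAA matches and that of Top2a 6 and 2. Of all 32851 promoter windows, 3.37% held at least 3 CCAAT matches, 0.0791% at least 6, and 0.0791% at least 3 together with at least 2 TTTGAA matches. The Dcx window, that of the neuroblast gene, held 1 CCAAT and 0 TTTGAA matches, and at least 1 CCAAT match was present in 37.4% of all windows. Sox4 had 4 CCAAT matches, more than Mki67, and 1.06% of all windows held at least 4. Sox11 and Dlx2 had 1 each and Dlx1 0, and of these and Sox4, Sox11 alone had a TTTGAA match. A match is a description of the letters and not of binding.

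Dlx1 and Dlx2 encode homeodomain proteins that commit progenitors of the ganglionic eminences and of the adult subventricular zone to a GABAergic fate. They lie 9426 bases apart on chromosome 2 in opposite orientation. Dlx1 (ENSMUSG00000041911; 71528113 to 71533981, plus strand) had 997, 1233 and 773 normalized read counts in WT replicates 1, 2 and 3 and 1255, 841 and 857 in TG replicates 1, 2 and 3. It was the only one of the 9 genes whose highest library was TG replicate 1. The difference between the genotypes was the smallest of the 9, with means of 1001 ± 230.0 (SD, n = 3) in WT and 984 ± 235 (SD, n = 3) in TG mice and a log2 fold change of -0.02 (95% interval -0.41 to 0.36). It was 0.14 without WT replicate 2 and -0.21 without TG replicate 1. Dlx2 (ENSMUSG00000023391; 71543408 to 71546754, minus strand) had 285, 367 and 235 in WT mice and 332, 252 and 199 in TG mice. Its log2 fold change was -0.19 (SE 0.19), with a 95% interval from -0.61 to 0.24, and it was -0.02 without WT replicate 2 and -0.38 without TG replicate 1. Dlx1as, an antisense RNA with 131 normalized read counts on average, shares 335 of the 5396 exon bases of Dlx1 (6.21%), and whether reads were counted by strand is not given in the sources used here.

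Sox4 and Sox11 belong with Sox12 to the SoxC group of transcription factors, which drive neuronal differentiation of committed precursors. Sox4 (ENSMUSG00000076431; chromosome 13, 28948919 to 28953713, minus strand) had 426, 553 and 359 normalized read counts in WT replicates 1, 2 and 3 and 451, 337 and 370 in TG replicates 1, 2 and 3. TG replicate 1 lay above WT replicates 1 and 3, and the log2 fold change was -0.20 (SE 0.15, 95% interval -0.53 to 0.14). Without WT replicate 2 it was -0.03, and without TG replicate 1 it was -0.31. A lincRNA on the opposite strand, Gm26735, covers 54.6% of the exon bases of Sox4 and is listed at 0 in the table. How reads on these shared bases were counted is not given in the sources used here. Sox11 (ENSMUSG00000063632; chromosome 12, 27334264 to 27342574, minus strand) had 682, 992 and 675 in WT mice and 706, 771 and 661 in TG mice. Apart from WT replicate 2, the 5 libraries lay close together and in mixed order. Its log2 fold change was -0.11 (SE 0.13, 95% interval -0.41 to 0.18), and 0.07 without WT replicate 2. Sox12, the third SoxC gene, had a log2 fold change of -0.11 (SE 0.07, adjusted P = 0.971 by limma).

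Dcx, Cd24a and Igfbpl1 mark migrating neuroblasts. Dcx encodes doublecortin, a microtubule-associated protein needed for migration, Cd24a a heavily glycosylated surface protein anchored in the membrane, and Igfbpl1 an insulin-like growth factor binding protein-like molecule. Dcx (ENSMUSG00000031285; chromosome X, 143855842 to 143933311, minus strand) had 1709, 2085 and 1264 normalized read counts in WT replicates 1, 2 and 3 and 1739, 1433 and 1498 in TG replicates 1, 2 and 3. The WT mice held both the highest and the lowest value, so the TG range lay inside that of the WT mice. The means were 1686 ± 411 (SD, n = 3) and 1557 ± 161 (SD, n = 3), a log2 fold change of -0.09 (SE 0.15, 95% interval -0.42 to 0.24, adjusted P = 0.983 by limma). The value for Dcx was 0.08 without WT replicate 2 and -0.17 without TG replicate 1.
Cd24a (ENSMUSG00000047139; chromosome 10, 43578284 to 43584265, plus strand) had 365, 515 and 305 in WT mice and 396, 369 and 324 in TG mice, again with the TG range inside the WT range. Its log2 fold change was -0.09 (SE 0.16), and it was 0.12 without WT replicate 2 and -0.16 without TG replicate 1. Igfbpl1 (ENSMUSG00000035551; chromosome 4, 45809468 to 45826923, minus strand) had 140, 246 and 109 in WT mice and 209, 110 and 119 in TG mice. It varied most of the 9 genes, with a 2.26-fold span from the lowest to the highest library. Its log2 fold change was -0.15 (SE 0.30, 95% interval -0.81 to 0.50), and it moved from -0.44 without TG replicate 1 to 0.18 without WT replicate 2. The two-sided exact permutation test of 3 mice against 3, which cannot go below P = 0.1, gave P values between 0.2 (Mki67) and 1.0 (Dlx1) over the 9 genes.

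**Figure D2:**
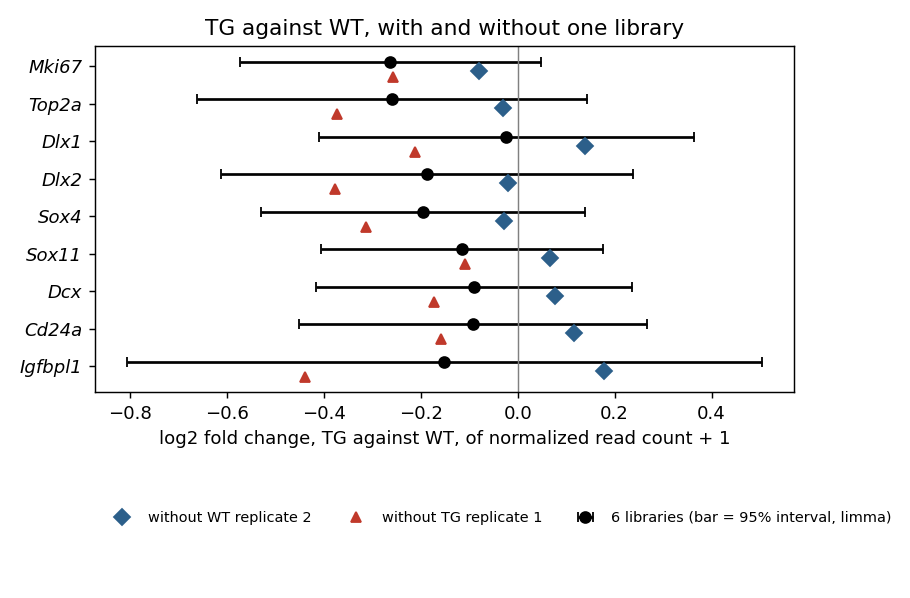
Log2 fold change of TG against WT (horizontal axis) for each marker with all 6 libraries (black, bars are 95% intervals from limma), without WT replicate 2 (blue diamonds) and without TG replicate 1 (red triangles). Each interval includes 0, and the blue diamonds lie between -0.08 and 0.18.

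With both genotypes pooled, mice of the same genotype differed more in these genes than in the median gene. The SD between mice of the same genotype was between 0.23 and 0.55 on the log2 scale over the 9 markers, against a median of 0.11 over all genes tested, and it was above that median in 9 of 9. Pooling hides unequal spread in some genes. In normalized read counts the SD was 82.2 in WT and 12.8 in TG mice for Mki67, and 181 and 55.2 for Sox11. For Dlx1 it was alike, at 230 and 235. WT replicate 2 was the highest of the 6 libraries in 8 of the 9 genes, against 13.9% of all genes tested, and the highest of the 3 WT libraries in 9 of 9 (31.6% of all genes tested). Its values were between 1.31-fold (Dlx1) and 1.79-fold (Igfbpl1) of the mean of the 5 other libraries. In 6 of the 9 genes the exact 95% Poisson interval of its read count lay above those of all the others, an interval that covers counting error only. Among the TG mice, replicate 1 was the highest in 7 of the 9 genes (36.0% of all genes tested). Averaged over the 9 genes, the log2 ratio to the mean of the 6 libraries was 0.48, -0.02 and -0.23 in WT mice 2, 1 and 3 and 0.15, -0.16 and -0.22 in TG mice 1, 2 and 3. The libraries at both ends of this order were WT libraries.

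**Figure D3:**
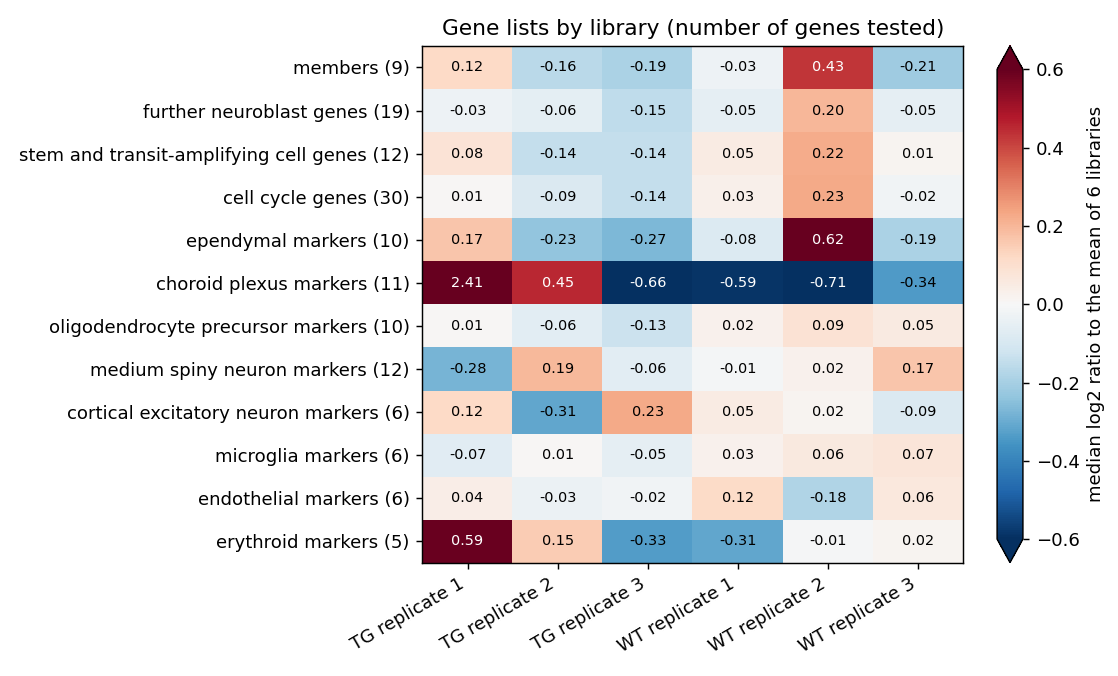
Median log2 ratio to the mean of the 6 libraries (colour and printed value) for the 9 markers and each further gene list (rows, with the number of genes tested) in the 6 libraries (columns). The markers and the ependymal markers are highest in WT replicate 2 (0.43 and 0.62), whereas the choroid plexus markers are highest in TG replicate 1 (2.41, beyond the colour scale).

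In other genes of the neurogenic lineage WT replicate 2 again had the highest median, but the order of the libraries differed in part. WT replicate 3, lowest for the 9 genes at a median log2 ratio of -0.21, was not the lowest here. It lay at -0.05 for the further neuroblast genes and 0.01 for the stem and transit-amplifying cell genes. Of 19 further neuroblast genes, 19 were tested, 0 were called in either direction by limma, edgeR or DESeq2 (2 had an unadjusted P below 0.05 by limma), and 16 had a log2 fold change below 0, with a median of -0.04. Without WT replicate 2, 9 were below 0 and 10 above, with a median of 0.01, and without TG replicate 1 the median was -0.10. WT replicate 2 was the highest library in 12 of the 19, against 13.9% of all genes tested. For this list and those below, the shares over all genes tested were 4.31% at an unadjusted P below 0.05 by limma and 50.8% with a log2 fold change below 0. Prokr2, the receptor for prokineticin 2, which guides neuroblasts, had 255 normalized read counts in WT replicate 2 and between 94.2 and 131 in the other libraries, and Draxin, an axon guidance factor, 125 against 52.0 to 63.5. Both were picked out after their values were seen. Sp8, a transcription factor of olfactory bulb interneuron precursors and likewise picked out, had 217 in TG replicate 1, 168 in WT replicate 2 and between 55.1 and 75.6 in the others. The smallest P values in the list were those of Tubb2b, a beta tubulin of young neurons (log2 fold change -0.23, SE 0.06), and Nrep (-0.17, SE 0.06), whose TG values lay below the WT values. These were the 2 of 19 genes without overlap, near the 10.1% of all genes tested. By limma both had an adjusted P of 0.971, and without WT replicate 2 their log2 fold changes were -0.16 and -0.16. On the other side, Etv1 (0.03) and Stmn1 (0.01), the most abundant of the list, were close to 0.

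Of the 12 stem and transit-amplifying cell genes, 0 were called by limma, edgeR or DESeq2 (2 at an unadjusted P below 0.05 by limma), 11 had a log2 fold change below 0, and the median was -0.16. Without WT replicate 2, 7 were below 0 and 5 above, with a median of -0.05, and without TG replicate 1 the median was -0.26. Sox2, a factor of neural stem cells that is also made in astrocytes, had 991, 1100 and 980 normalized read counts in WT mice and 955, 890 and 794 in TG mice. Its values did not overlap, as in 2 of the 12 genes of the list (10.1% of all genes tested). The log2 fold change of Sox2 was -0.22 (SE 0.08, adjusted P = 0.971 by limma), and -0.17 without WT replicate 2. WT replicate 2 was the highest library in 6 of the 12 genes (13.9% of all genes tested). Prom1, the only gene of the list above 0 (0.12, SE 0.07), was lowest in that library, with 557 normalized read counts. Gfap, the most abundant gene of the list and an intermediate filament of astrocytes and of subventricular stem cells, had 5794 in WT replicate 2 and between 2187 and 3431 in the other libraries.

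The 30 other cell cycle genes were all tested, 0 were called by limma, edgeR or DESeq2 (2 at an unadjusted P below 0.05 by limma), 28 had a log2 fold change below 0, and the median was -0.09. WT replicate 2 was the highest library in 20 of them (13.9% of all genes tested). Without it 19 were below 0 (50.9% of all genes tested), with a median of -0.03. Without TG replicate 1 the median was -0.19. The values of the genotypes did not overlap in 6 of the 30 genes, against 10.1% of all genes tested. The smallest P values were those of Foxm1, a transcription factor of mitotic genes (-0.36, SE 0.14), and Cenpe, a kinetochore motor (-0.32, SE 0.14), both with an adjusted P value of 0.971 by limma. Pcna, the sliding clamp of DNA polymerase and the most abundant of the list (0.06, SE 0.06), and the helicase subunit Mcm6 (0.02) were above 0. Of the 27 promoter windows of this list, which belong to 25 genes, 15 held both motifs marked above, against 6.95% of all windows.

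Markers of neighbouring cell types moved with the 9 genes to different degrees. The ependymal markers summed to 1834 normalized read counts in WT replicate 2, 1343 in TG replicate 1 and between 1019 and 1162 in the others. WT replicate 2 was the highest library in 9 of the 10 tested (13.9% of all genes tested). Foxj1, the master regulator of motile cilia and the most abundant, had 491 in WT replicate 2 and 282 to 402 in the others, and Mia of this list had a mean below the filter. The median log2 fold change of the list was -0.17, with 0 genes called (2 at an unadjusted P below 0.05 by limma), and it was 0.06 without WT replicate 2 and -0.28 without TG replicate 1. Hydin (-0.57, SE 0.23) and Ak7 (-0.49, SE 0.22), which act in cilia, had the smallest P values (-0.26 and -0.21 without WT replicate 2), and Rsph1 was the only one above 0 (0.11). With the log2 sum of the ependymal markers as a covariate in limma, an alternative chosen after seeing the data, 6 of the 9 neurogenesis markers had a log2 fold change above 0 and 3 below, with a median of 0.02. The part of ependymal and subventricular tissue in these differences was not tested further.
Choroid plexus markers did not follow the same order. WT replicate 2, the highest library for 8 of the 9 genes, was the highest for 0 of the 11 choroid plexus markers tested, and TG replicate 1 for 11. Over all genes tested these shares were 13.9% and 17.8%. Their median log2 fold change was 1.30, and 0.22 without TG replicate 1. Enpp2 was the most abundant of these, and Clic6 (0.55, SE 0.17) and Sostdc1 (1.68, SE 0.48) had the smallest P values (0.41 and 1.04 without TG replicate 1), 4 of the 11 having an unadjusted P below 0.05 and 0 being called by limma. Oligodendrocyte precursor markers, of cells that also divide, had median log2 ratios between -0.13 and 0.09 over the libraries, with 0 of 10 called by limma (1 at an unadjusted P below 0.05) and a median log2 fold change of -0.11. Olig1 was the most abundant, Enpp6 (-0.20, SE 0.08) and Sox10 (-0.14) had the smallest P values, and Gpr17 (0.03) alone was above 0. The values of the genotypes did not overlap in 3 of the 11 choroid plexus markers tested. For the ependymal and the oligodendrocyte precursor markers this count was 1 of 10 each, against 10.1% of all genes tested.

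In the remaining cell type lists, WT replicate 2 was the highest library for 2 of the 6 microglia markers and for 0 genes of the other lists (13.9% of all genes tested). Again 0 genes were called by limma, edgeR or DESeq2, and an unadjusted P below 0.05 by limma was met by 2 microglia markers, 1 endothelial marker and 0 of the medium spiny neuron, cortical and erythroid markers. The values of the genotypes did not overlap in 3 of 6 microglia markers and 1 of 6 endothelial markers. They overlapped in all medium spiny neuron, cortical and erythroid markers (no overlap in 10.1% of all genes tested). Medium spiny neuron markers, led by Pde10a, had a median log2 fold change of -0.13 over 12 genes, with Bcl11b (-0.14) and Ppp1r1b (-0.15) below 0 and Tac1 (0.07) and Pdyn (0.01) above. Their lowest library was TG replicate 1, with a median log2 ratio of -0.28, and without it the median log2 fold change was 0.01. Cortical excitatory neuron markers, led by Slc17a7, had a median of 0.03 over 6 genes (-0.02 without TG replicate 1), from Emx1 (-0.23) and Neurod2 (-0.06) to Neurod6 (0.19) and Tbr1 (0.07). Microglia, which can divide, showed a median of -0.11 over 6 markers, led by Csf1r, with the smallest P values for C1qa (-0.17) and Cx3cr1 (-0.12). Endothelial markers, led by Flt1, were split evenly around 0, from Cldn5 (-0.25) and Kdr (-0.16) to Slco1a4 (0.04) and Ly6c1 (0.22). Erythroid markers, of blood left in the tissue, had a median of 0.27 over 5 genes, with 0.44 for Alas2 and 0.26 for Hbb-bs, the most abundant, and were highest in TG replicate 1, without which the median was 0.09.

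Among the genes tested that varied at least as much as the mean profile of the 9 markers (2834 genes), 3300002A11Rik, Cfap126, Prtn3, Mycbpap and Dnah5 had the profile over the 6 libraries most like it. Pearson's r was 0.980, 0.977, 0.975, 0.975 and 0.966, given as a description without a test, since they were the highest of many genes over 6 points that share a scaling. Cfap126 and Dnah5, which encode a cilium protein and an axonemal dynein heavy chain, are on the ependymal list. Dnah5 had 267 normalized read counts in WT replicate 2, 207 in TG replicate 1 and between 144 and 175 in the others. Of the 5, 0 were called (adjusted P between 0.971 and 0.989 by limma).

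Per kilobase of annotated exon, the level of the 9 genes spanned a wide range. Dlx1 had the highest mean over the 6 libraries, with 184 ± 38.6 normalized reads per kb (SD, n = 6), followed by Cd24a with 147 ± 28.8 (SD, n = 6) and Dcx with 128 ± 22.8 (SD, n = 6). Each of them was above the next in 6 of 6 libraries. Dlx2 (97.4 ± 22.0), Sox11 (90.0 ± 15.1) and Sox4 (86.8 ± 16.6, SD, n = 6) came next and did not keep a fixed order, since Dlx2 was above Sox11, and Sox11 above Sox4, in 4 of 6 libraries. Igfbpl1 (47.8 ± 17.8), Mki67 (31.5 ± 6.25) and Top2a (26.1 ± 6.48, SD, n = 6) were the lowest, each above the next in 6 of 6 libraries. The order uses the union of annotated exons as the length, so that unused exons lower a gene's value. For Sox4 this length includes the 54.6% of its exon bases that Gm26735 shares on the opposite strand. If reads there were assigned to neither gene, the level of Sox4 per kb is understated, and its place in the order is uncertain.

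The paralogs of Top2a, Dcx, Sox4 and Sox11 that were tested were more abundant per length than these markers, to different degrees. Top2b, the topoisomerase of postmitotic cells, had between 6.55 and 12.5 times the level per kb of Top2a, lowest in WT replicate 2. Dclk1, a doublecortin-like kinase, had between 10.7 and 17.1 times that of Dcx, Dclk3 between 5.49 and 9.36 times and Dclk2 between 2.31 and 3.73 times. Sox12 had between 1.84 and 2.66 times the level per kb of Sox4 and between 1.78 and 2.80 times that of Sox11. The ratio to Sox4 carries the limit on the length of Sox4 given above, and may be overstated. Among the Dlx genes the order was mixed, and Dlx1 lay between 0.881 and 1.55 times the level per kb of Dlx5. The mean levels per kb were 260 for Dlx6 and 155 for Dlx5, against 184 for Dlx1 and 97.4 for Dlx2. Of the 8 paralogs tested 0 were called by limma, edgeR or DESeq2, and 1, Dclk3, had an unadjusted P below 0.05 by limma. Their log2 fold changes were 0.10 for Dclk1 (SE 0.05), 0.07 for Top2b, -0.20 for Dclk3 (SE 0.07), -0.06 for Dclk2, -0.19 for Dlx4, -0.09 for Dlx5 and -0.04 for Dlx6, the remaining one being Sox12 given above. Dlx3 had a mean below the filter.

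**Figure D4:**
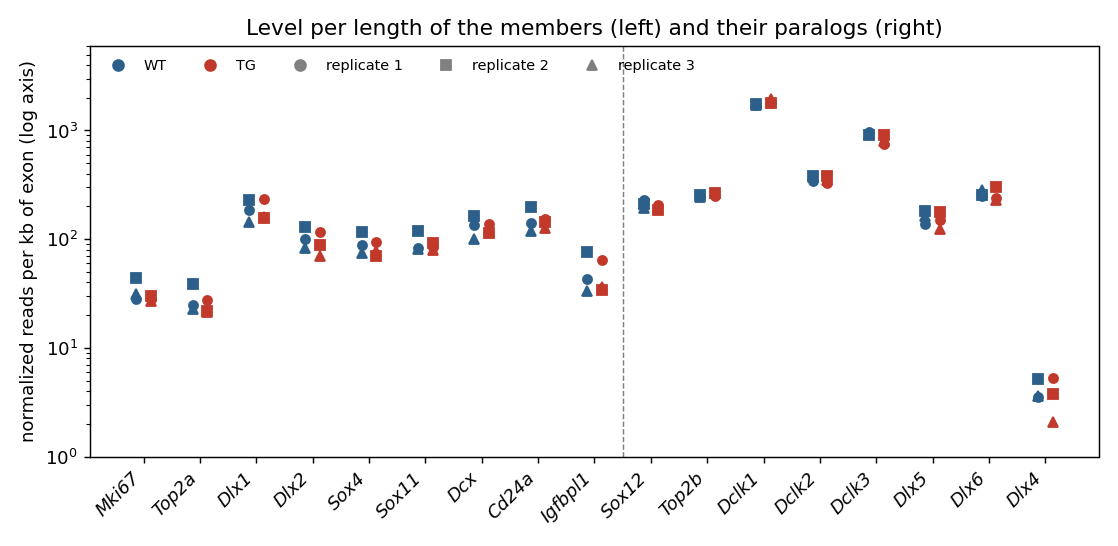
Normalized reads per kb of exon (vertical log axis) in the WT (blue) and TG (red) libraries for the 9 markers (left of the dashed line) and their tested paralogs (right), with the symbol shape giving the replicate. Dlx1 has the highest mean of the markers and Top2a the lowest, and Dclk1 lies between 10.7 and 17.1 times above Dcx within a library.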

How the data were processed

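Striatal RNA of 3 WT and 3 Shank3 TG mice was sequenced, and per the labels and methods the authors used Trimmomatic 0.35 for trimming, TopHat2 2.1.0 for alignment to GRCm38 and HTSeq for counting (versions from the submitters' processing notes). The deposited signal is a normalized count, that is, reads on a gene scaled by the size factor that DESeq2 gave its library. The HTSeq version, its strand setting and the annotation release are not given in the sources used here. Since 100% of the values of each library were within 0.01 of a whole multiple of what 1 read was worth there, the read counts (27689589 to 36647626 per library) were recovered by division. Gene names, positions and exon lengths came from GENCODE M21, by identifier, for 45229 of 46078 genes. Promoter windows came from RefSeq on GRCm38.p6.

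The test was limma 3.58.1 (R 4.3.3) with a trended prior variance, applied to log2(value + 1) of 3 TG and 3 WT libraries for 17605 genes averaging 10 or more, adjusted by the Benjamini-Hochberg method over all of them at 0.05. A fold change on this scale understates that of low genes. Alternatives were edgeR 4.0.16 (quasi-likelihood), DESeq2 1.42.0 and limma-voom on recovered counts, TMM and total scaling, other pseudocounts and filters, leaving out a library, a block for the replicate number, an adjusted P value of 0.1 and an ependymal covariate. The fits were tested on simulated data. The members and gene lists were chosen with earlier results of these data known. Named genes are the members, their tested paralogs, up to 2 genes per list and direction with the smallest P value, the most abundant gene of a marker list, and the 5 genes most like the mean profile of the members. Others are marked as picked out later. A gene that this rule names is not reported here. Each mouse gave 1 library, so P values measure the spread between mice.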

Additional observations from a re-analysis of the deposited data

How the results depend on the processing

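The log2 fold changes of the 9 markers kept their sign, with 0 of 9 called, with pseudocounts of 0.5 and 5, no filter, a mean of at least 50, TMM or total scaling, edgeR, DESeq2, limma-voom, an adjusted P value of 0.1 and the replicate block. With 1 mouse left out in turn, 0 of 9 were called, and the log2 fold changes ranged from -0.28 to 0.078 for Dcx, -0.21 to 0.068 for Sox11, -0.21 to 0.14 for Dlx1, -0.26 to 0.12 for Cd24a and -0.44 to 0.18 for Igfbpl1. These highest values were those without WT replicate 2, where the median of the 9 was 0.07. Without WT replicate 3 the median was -0.32, and the unadjusted P by limma was 0.0229 for Dcx and 0.0453 for Sox4. Mki67 had an unadjusted P by limma of 0.0204 without WT replicate 1 and 0.0403 with the replicate block. Below 0 throughout were Sox4 (-0.34 to -0.03), Dlx2 (-0.38 to -0.01), Mki67 (-0.39 to -0.08) and Top2a (-0.41 to -0.03). Without TG replicate 2, Dlx1 (0.078) and Igfbpl1 (0.019) and, without TG replicate 3, Dlx1 (0.064) were also above 0. With the ependymal covariate, 6 turned above 0, at 0.064 for Dcx, 0.016 for Sox11, 0.16 for Dlx1, 0.011 for Dlx2, 0.086 for Cd24a and 0.18 for Igfbpl1. The order of the libraries by the mean profile was the same with each profile divided by its SD.

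Over all genes, the count called was 1, and 5 with no filter, 7 by DESeq2, 4 at an adjusted P value of 0.1 and between 1 and 2 with 1 mouse left out. In the further lists 0 genes were called with all 6 libraries. With the replicate number as a replicate block, 1 gene and 0 of the 9 markers were called. The labels do not say whether the numbers pair mice. The deviations of same-numbered libraries correlated by 0.05, 0.02 and 0.09 across genes, and those of differently numbered libraries by -0.12 to 0.08. With 3 mice per genotype, the 95% intervals of the markers span between 0.58 and 1.31 on the log2 scale. They are intervals for single genes, not adjusted over the 17605 genes tested, and give no limit of detection. The cause of the dependence on single libraries was not tested.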
